A study of Mus musculus with 21 samples.

Results

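NUP98-NSD1 mouse leukaemia cells carrying an empty lentiviral vector were compared with MLL-AF9 mouse leukaemia cells carrying an empty retroviral vector. The comparison used 5 of the 21 libraries of the series, chosen by their labels. Of these, 3 came from NUP98-NSD1 cells infected with an insert-free pLKO.1-puro virus and selected with puromycin (shEV), and 2 from MLL-AF9 cells infected with an insert-free MSCV-neo virus (EV). A further 3 NUP98-NSD1 libraries, from cells kept with the solvent DMSO for 4 days and with no virus named in the labels, gave a second control culture of the first fusion. Both lines are established cultures transformed by a flag-tagged fusion protein and grown with murine stem cell factor. The labels do not give a mouse strain, the species of the fusion cDNA, the number of clones in a line, or whether replicates were separate cultures.

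The fusion, the vector, the drug selection and the experiment in which the libraries were made all change together between shEV and EV, and they cannot be told apart. The shEV, DMSO and EV libraries also lie in 3 tables that the authors normalised separately, so no test was made across them. Each gene was instead ranked within its library over the 13026 gene symbols found in the shEV and EV tables. The rank is given as a percentile, with 0 for the lowest and 100 for the highest gene.

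NUP98-NSD1 joins a nucleoporin to NSD1, a methyltransferase for lysine 36 of histone H3. MLL-AF9 joins the amino-terminal part of the methyltransferase MLL, encoded by Kmt2a, to AF9, a transcription elongation partner encoded by Mllt3. Both fusions occur in human acute myeloid leukaemia and both are known for keeping HOXA cluster genes and their cofactor Meis1 active, a state typical of early blood progenitors.

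Whole reads could be recovered from the deposited values. The totals were 31294271 to 34813867 reads per shEV library, 13581901 to 15307635 reads per DMSO library and 17341257 to 18932041 reads per EV library. Levels below are CPM, reads scaled to a common total over the shared symbols, with the SD over libraries (n = 3 for shEV and DMSO, n = 2 for EV), and are not divided by gene length. The shared symbols are those in the shEV and EV tables, except for DMSO, which was scaled over the 12466 symbols in all 3 tables. Genes listed in 1 table only were scaled over all symbols used in that table. Replicates lay close together: the median gene moved by 0.66 to 0.714 percentile points between shEV libraries and by 0.848 points between the EV libraries. The chi-square per degree of freedom between replicate libraries was 2.19 to 2.76 for shEV and 1.78 for EV, above the 1 that counting alone gives.

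A gene was called when the shEV and EV libraries did not overlap in percentile and the group means differed by at least 10 points. Of 12082 genes at 1 CPM or more in at least 2 of the 5 libraries, 1832 were called higher in shEV (15.2%) and 1687 lower (14.0%), together 29.1%. By a second rule, no overlap in CPM and at least a 2-fold ratio of mean CPM plus 1, 1774 genes were higher (14.7%) and 1000 lower (8.28%). Among the percentile calls, 413 of the higher genes averaged under 1 CPM in EV and 303 of the lower genes averaged under 1 CPM in shEV. Such genes passed the filter only through the line in which they were high, so they had to differ.

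The same percentile rule found about as many genes between the 2 control cultures of the NUP98-NSD1 fusion. There, 1868 of 12011 genes were higher in shEV than in DMSO (15.6%) and 1771 lower (14.7%), together 30.3%. DMSO set against EV gave 2324 of 11963 genes higher (19.4%) and 2679 lower (22.4%), together 41.8%. A call between shEV and EV therefore does not separate the fusions from other differences between cultures and tables. Within a table calls were fewer: 1.88% of genes for shKdm5b against shEV, 5.37% for wild-type Kdm5b against EV and 4.17% for the H499A mutant of Kdm5b against EV.

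Large differences were more frequent between the lines. Groups that did not overlap and lay at least 40 points apart were found for 239 genes (1.98%) between shEV and EV, 354 (2.96%) between DMSO and EV, and 141 (1.17%) between shEV and DMSO. At 60 points the counts were 57 (0.472%), 100 (0.836%) and 28 (0.233%). Split by direction at 20 points, 629 of 12082 genes were higher and 558 lower between shEV and EV. Between shEV and DMSO 286 of 12011 were higher and 651 lower. Lower genes at 20 points were thus fewer between shEV and EV than between the control cultures of the same fusion. These comparisons share libraries in pairs and are given side by side only.

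**Figure D1:**
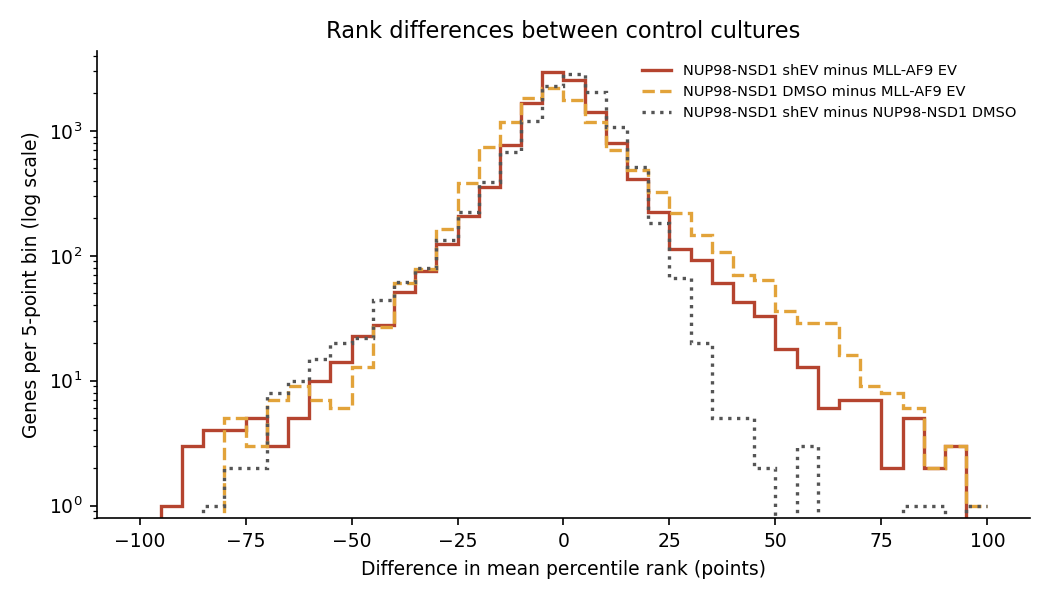
Genes per 5-point bin (log scale) of the difference in mean percentile rank, for shEV minus EV (solid), DMSO minus EV (dashed) and shEV minus DMSO (dotted), over genes that passed the filter of the first comparison. The 3 curves run close together near 0, and between 25 and 75 points on the positive side the dotted curve lies below the other two, with 286 genes at least 20 points higher in shEV than in DMSO against 651 lower.

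The genes that give the fusions their parts were read first. Nsd1 was at 223, 227 and 229 CPM in shEV, 185, 177 and 181 CPM in DMSO, and 57.4 and 56.7 CPM in EV. All NUP98-NSD1 libraries lay above both MLL-AF9 libraries, and the log2 ratio of mean CPM plus 1 was 1.97 for shEV over EV. Kmt2a went the other way, with 70.6, 73.4 and 68.9 CPM in shEV, 63.9, 59.5 and 63.0 CPM in DMSO, and 267 and 254 CPM in EV (log2 ratio -1.86 for shEV over EV). Nsd1 lies on chromosome 13 from 55209782 to 55318325 and Kmt2a on chromosome 9 from 44803355 to 44881296 (GRCm38, GENCODE M21). Each line thus had more reads of a gene that forms its own fusion. The files count reads per gene, so reads of the fusion and of the intact gene cannot be separated.

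The other partner of each fusion differed less. Nup98 averaged 123 ± 0.862 CPM in shEV, 93.2 ± 3.31 CPM in DMSO and 79.7 ± 5.61 CPM in EV, 7.72 points apart between shEV and EV and not called. Mllt3 averaged 12.2 ± 0.801 CPM in shEV, 24.8 CPM in DMSO and 26.7 ± 0.616 CPM in EV, so its call as lower held for shEV and not for DMSO.

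Hoxa9, the homeobox gene most tied to these leukaemias, stood at the same rank in both vector cultures. It had 207, 210 and 209 CPM in shEV, 126, 129.9 and 119.6 CPM in DMSO, and 204 and 202 CPM in EV, with mean percentiles 0.332 points lower in shEV than in EV. Meis1 was lower, at 36.1, 37.7 and 36.1 CPM in shEV and 33, 32.5 and 29.5 CPM in DMSO, against 65.7 and 67.3 CPM in EV. The Meis1 groups did not overlap, and the difference of -17.3 points was called by rank but not by the 2-fold rule. Of the other HOXA genes, Hoxa5 was at 8.09 ± 0.627 CPM in shEV and 19.6 CPM in EV, Hoxa11 at 11.6 ± 0.188 CPM in shEV and 21.1 ± 0.407 CPM in EV, and Hoxa2 at 0.66 CPM in shEV and 2.08 CPM in EV. By percentile those were the 3 of 10 HOXA genes called, all lower in shEV, and DMSO had 1 higher and 4 lower of 9. Hoxa2 averaged under 1 CPM in shEV, so it passed the filter only through EV and had to differ. By the CPM rule 1 HOXA gene was called higher and 1 lower, and the lower one was Hoxa5. The list's median difference was -7.56 points against -0.32 points over all genes that passed.

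Hoxa11 also separated the control cultures of the same fusion, with 0.92, 0.593 and 0.661 CPM in DMSO. Of the HOXB cluster, only Hoxb3 and Hoxb4 were in both tables. Hoxb3 was higher, with 8.11, 8.61 and 9.33 CPM in shEV and 17.4, 15.9 and 16.9 CPM in DMSO, against 0 and 0.465 CPM in EV. It passed the filter only through shEV, so it had to differ.

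Kdm5b, the histone H3 lysine 4 demethylase that the series manipulates, was low in both vector cultures. It had 2.1, 3.24 and 2.28 CPM in shEV and 6.17 and 6.91 CPM in EV, a difference of -11.1 points. In DMSO it had 41.6, 39.6 and 39.9 CPM, which puts DMSO 33.3 points above EV, so the direction of this call turned with the NUP98-NSD1 culture used. Ezh2, the main catalytic subunit of the Polycomb complex PRC2, was at 189 ± 3.04 CPM in shEV, 116 ± 4.11 CPM in DMSO and 229 ± 2.62 CPM in EV and was not called.

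**Figure D2:**
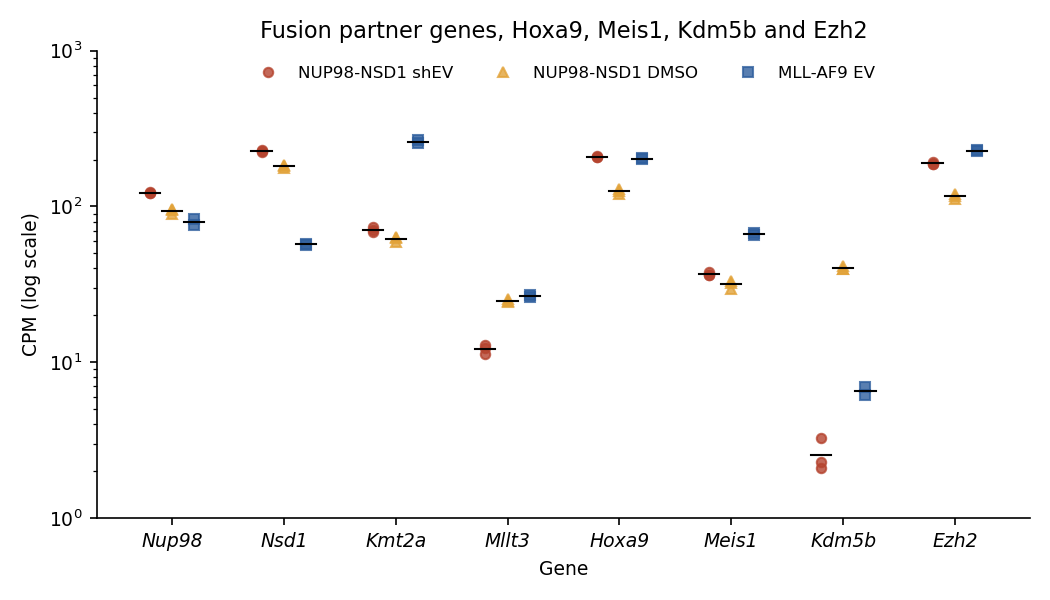
CPM (log scale) of 8 genes in each library, with a bar at the group mean; circles are NUP98-NSD1 shEV (3 libraries), triangles NUP98-NSD1 DMSO (3) and squares MLL-AF9 EV (2). Nsd1 lies higher and Kmt2a lower in both NUP98-NSD1 groups than in EV, Hoxa9 is level between shEV and EV, and Kdm5b is highest in DMSO.

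Genes that led the higher side were nearly silent in MLL-AF9 EV. Pmp22, which encodes a peripheral myelin membrane protein, had 6283, 6775 and 5959 reads in shEV (186, 196 and 192 CPM) against 0 and 1 read in EV. F7, the coagulation factor VII gene, had 292, 298 and 286 CPM in shEV against 0.372 and 0.813 CPM in EV. Pcdh7, a protocadherin, had 148, 162 and 149 CPM in shEV against 0.372 and 0.348 CPM in EV. Rnf128, an E3 ubiquitin ligase, and Pde2a, a phosphodiesterase for cyclic nucleotides, had 2 and 3 reads each in the EV libraries, against 115 to 119 CPM and 102 to 107 CPM in shEV. In all of these genes the group means lay over 80 percentile points apart. All of them averaged under 1 CPM in EV, so they passed the filter only through shEV and had to differ. No ratio is given where EV held so few reads.

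The next genes of that group had a low but clear level in EV. App, the amyloid precursor protein gene, had 452, 456 and 459 CPM in shEV against 3.62 and 4.07 CPM in EV (log2 ratio of mean CPM plus 1, 6.56). Gpnmb, a lysosomal glycoprotein of macrophages, had 169, 171 and 165 CPM in shEV against 1.28 and 2.09 CPM in EV (log2 ratio 5.98). Mras, a small GTPase of the Ras family, had 243, 241 and 245 CPM in shEV against 3.72 and 3.14 CPM in EV (log2 ratio 5.78). Wfdc21, a small secreted whey acidic protein family member, and Fpr1, a receptor for bacterial formyl peptides, completed the 10, with 194 to 222 CPM and 114 to 126 CPM in shEV against means of 2.41 CPM and 1.15 CPM in EV.

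In the DMSO libraries Pmp22 was at 222 to 227 CPM, F7 at 365 to 380 CPM, Pcdh7 at 124 to 131 CPM, Rnf128 at 134 to 145 CPM and Pde2a at 175 to 194 CPM, all near or above shEV. App was at 1997, 2013 and 2037 CPM in DMSO, several times its shEV level, and Fpr1 at 46.2 to 48.6 CPM, below its shEV level. In the libraries of the EV table that carry wild-type Kdm5b or H499A, Pmp22 averaged 0.31 and 10.2 CPM, and App averaged 0.444 and 0.843 CPM.

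Genes that led the lower side were high in MLL-AF9 EV and at or near 0 in NUP98-NSD1 shEV. Cd34, the sialomucin used to mark blood stem and progenitor cells, had 33, 35 and 26 reads in shEV (0.976, 1.01 and 0.836 CPM) against 340.4 and 328 CPM in EV (log2 ratio -7.43). Cd24a, a small anchored surface glycoprotein, had 0.385, 0.376 and 0.579 CPM in shEV against 280.4 and 285 CPM in EV (log2 ratio -7.62). Adgrg1, the adhesion receptor GPR56, had 2.52, 2.66 and 2.48 CPM in shEV against 301 and 315 CPM in EV (log2 ratio -6.45). Cnn3, an actin-binding calponin, had 1, 0 and 1 reads in shEV against 117 and 118 CPM in EV. The leading genes were picked from called genes, so their groups could not overlap. All leading lower genes but Adgrg1 averaged under 1 CPM in shEV. They passed the filter only through EV and had to differ.

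Ptprcap, a partner of the leukocyte phosphatase CD45, had 5, 10 and 3 reads in shEV against 148 and 153 CPM in EV. Marcksl1, a relative of the actin-binding substrate of protein kinase C, was at 0.515 to 0.607 CPM in shEV against 153 and 159 CPM in EV. Epha7, an ephrin receptor, was at 0.607 to 1.09 CPM in shEV against 162 and 154 CPM in EV. The DMSO libraries were also low in these, at 1.41 to 2.12 CPM for Ptprcap, 2.5 to 2.74 CPM for Marcksl1 and 1.56 to 1.72 CPM for Epha7. Cd24a was at 11.2 to 11.7 CPM and Adgrg1 at 9.99 to 12.4 CPM in DMSO, above shEV and far below EV.

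Of the leading lower genes, 2 were much higher in DMSO than in shEV. Lsp1, a leukocyte actin-binding protein, had 0.681, 0.434 and 0.772 CPM in shEV and 97.0, 105 and 99.0 CPM in DMSO, against 179 and 179.6 CPM in EV. Itgb7, an integrin beta chain, had 0.089, 0.202 and 0.161 CPM in shEV and 35.4, 32.2 and 33.1 CPM in DMSO, against 86.0 and 83.7 CPM in EV. For these genes the 2 NUP98-NSD1 cultures stood further apart in rank, by more than 50 points, than DMSO and EV did.

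Hist1h2ap, a replication histone gene of the H2A family, had 23, 36 and 21 reads in shEV against 569 and 574 CPM in EV. It belongs to a cluster of near-identical copies, so its reads may be shared between genes and its value is uncertain. Of 33 histone, small RNA and mitochondrial genes listed as signs of library preparation, 15 were in both tables and 9 passed the filter, of which 2 were higher and 2 lower. Among the called members, 3 averaged under 1 CPM in the lower group and had to differ. The summed level of the list was 376 to 399 CPM in shEV and 368 to 489.9 CPM in EV. That sum leaves out Hist1h2ap, which in EV was above the whole sum, so it does not show such genes to be level. Rn7sk, a small nuclear RNA gene of the list, was at 45.2 ± 0.918 CPM in shEV, 73.3 CPM in DMSO and 8.21 ± 1.61 CPM in EV. Which of the 2 named library kits made which library is not stated in the labels, and its part in these values was not tested.

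**Figure D3:**
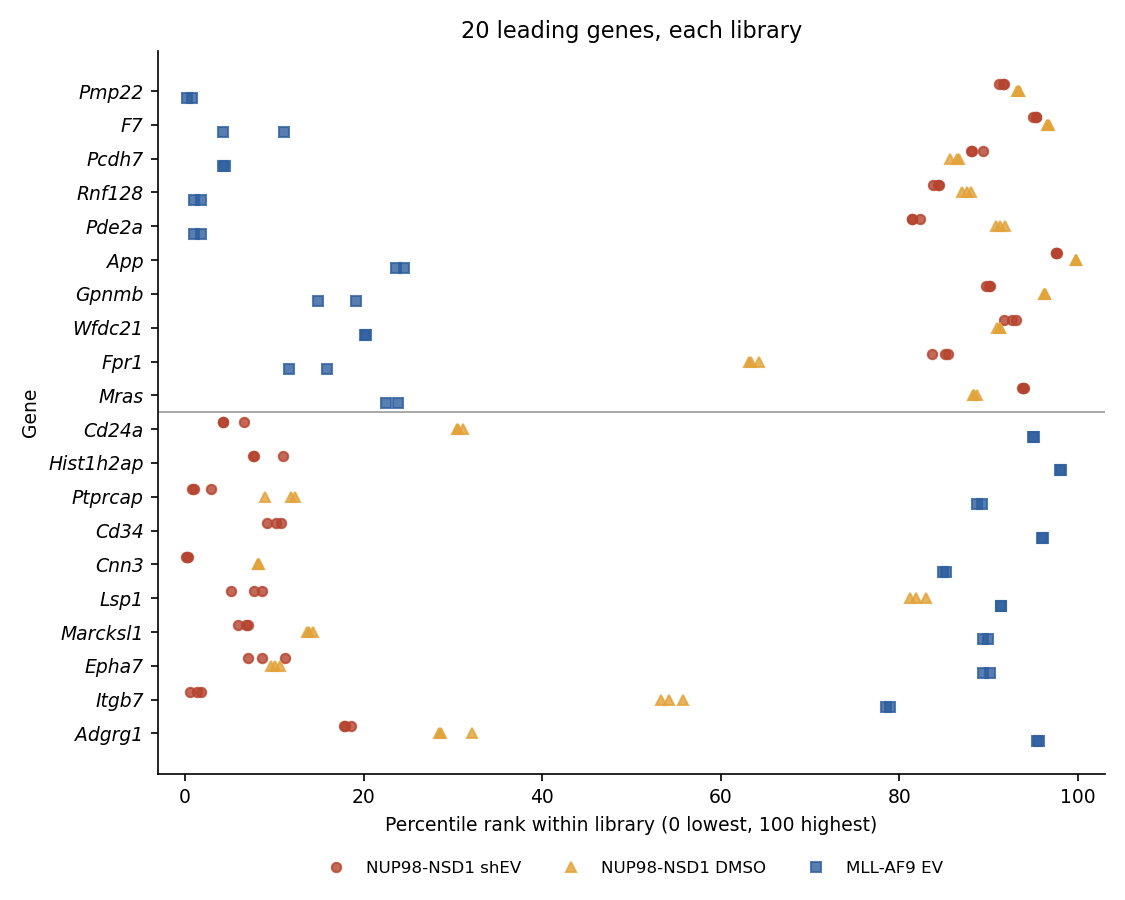
Percentile rank within each library of the 10 genes leading the higher side (above the line) and the 10 leading the lower side (under it); circles are NUP98-NSD1 shEV, triangles NUP98-NSD1 DMSO and squares MLL-AF9 EV. Circles and squares sit at opposite ends throughout, and the DMSO triangles of Lsp1 and Itgb7 sit nearer to the squares than to the circles; Cd34 and Hist1h2ap have no triangles because they were not analysed there.

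Promoter windows of the genes at both ends are shown to set the sequence beside the switch in level. RefSeq windows on GRCm38.p6 run from 250 bases before to 50 bases after a gene start, and CG dinucleotides, the sites of DNA methylation, are in capitals. The motif searched was CG, which reads the same on both strands. Of all 27025 windows of 300 bases, 94.2% held at least 1, with a median of 7. These include genes that did not enter the comparison. Among genes that passed the filter and had a window, the median was 21, with quartiles of 14 and 29. Pmp22 lies at chr11:63128732-63129031 on the plus strand and its window holds 3 CG. F7 lies at chr8:13025784-13026083 on the plus strand and holds 5.
Pmp22: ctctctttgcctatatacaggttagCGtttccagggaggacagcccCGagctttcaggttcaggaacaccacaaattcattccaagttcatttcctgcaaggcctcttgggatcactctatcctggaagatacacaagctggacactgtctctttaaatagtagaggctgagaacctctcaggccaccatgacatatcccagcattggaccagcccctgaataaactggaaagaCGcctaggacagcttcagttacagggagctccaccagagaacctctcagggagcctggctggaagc
F7: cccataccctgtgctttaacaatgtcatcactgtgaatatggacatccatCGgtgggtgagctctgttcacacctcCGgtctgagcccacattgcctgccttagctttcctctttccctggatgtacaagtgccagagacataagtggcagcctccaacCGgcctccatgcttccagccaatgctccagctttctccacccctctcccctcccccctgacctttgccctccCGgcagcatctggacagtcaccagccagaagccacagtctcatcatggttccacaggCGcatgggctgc
Cd34 lies at chr1:194938571-194938870 on the plus strand and its window holds 7 CG. Cnn3 lies at chr3:121426291-121426590 on the plus strand and holds 33.
Cd34: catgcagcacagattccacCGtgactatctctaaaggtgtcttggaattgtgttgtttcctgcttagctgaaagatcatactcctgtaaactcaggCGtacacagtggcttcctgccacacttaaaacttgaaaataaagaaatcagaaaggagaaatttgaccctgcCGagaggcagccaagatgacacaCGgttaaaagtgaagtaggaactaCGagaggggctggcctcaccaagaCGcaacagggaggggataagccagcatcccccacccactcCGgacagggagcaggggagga
Cnn3: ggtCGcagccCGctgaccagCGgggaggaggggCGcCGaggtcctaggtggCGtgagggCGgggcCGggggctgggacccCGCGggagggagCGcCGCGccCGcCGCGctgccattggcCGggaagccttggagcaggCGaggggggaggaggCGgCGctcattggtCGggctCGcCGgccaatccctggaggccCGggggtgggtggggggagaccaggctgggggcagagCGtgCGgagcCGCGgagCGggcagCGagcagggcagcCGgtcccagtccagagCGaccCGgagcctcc
Windows were held for 15 of the 20 leading genes, and among these the count ran from 1 CG (Fpr1) to 36 CG (Mras). Windows were found for 8435 of the 12082 genes that passed (69.8%), under the 80% needed for a comparison of gene groups, so such a comparison would be void and none is given.

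The differences were not spread evenly over the genome. On chromosomes 1, 5 and 6, 560 of 2104 genes were called higher in shEV than in EV (26.6%) and 173 lower (8.22%). On the other chromosomes 1219 of 9575 genes were higher (12.7%) and 1459 lower (15.2%). Over 8687 genes averaging at least 10 CPM, and after the median of all genes was removed, the median log2 ratio of shEV over EV was 0.48 on chromosome 1 (535 genes), 0.36 on chromosome 5 (607 genes) and 0.41 on chromosome 6 (420 genes). Chromosome 15 had a median of -0.29 and chromosome X one of -0.26. The other 15 chromosomes lay between -0.12 and -0.03. These chromosomes were singled out after their values were seen.

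DMSO over EV gave medians of 0.48, 0.39 and 0.58 on chromosomes 1, 5 and 6, of -0.38 on chromosome 15 and of -0.14 on chromosome X. It shares the EV libraries with the first comparison. Between shEV and DMSO, from different tables of the same fusion, chromosomes 1, 5 and 6 had medians of -0.06, -0.05 and -0.07, and all 20 chromosomes lay between -0.08 and 0.12. Within tables the medians ran from -0.05 to 0.04 for shKdm5b over shEV, from -0.04 to 0.04 for wild-type Kdm5b over EV and from -0.04 to 0.06 for H499A over EV. The shifts of chromosomes 1, 5, 6 and 15 thus appeared with either NUP98-NSD1 culture set against EV. That of chromosome X did not stand apart with DMSO, where the other 15 chromosomes lay between -0.18 and -0.01. DNA was not measured in the libraries used here, and which of the lines departs from the other cannot be told apart.

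**Figure D4:**
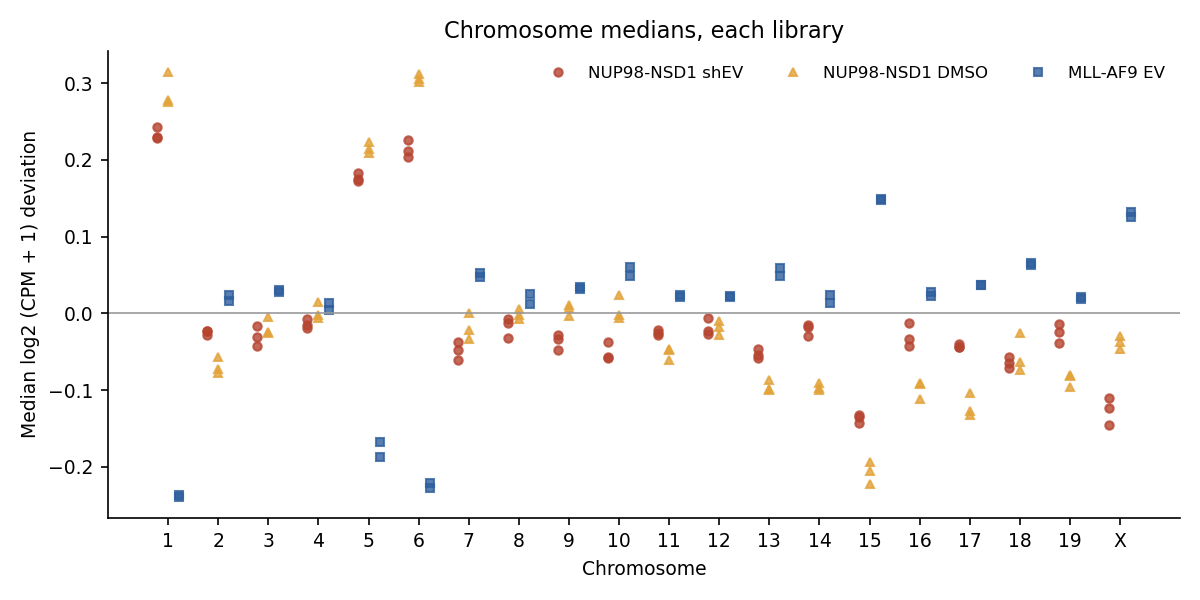
Median over the genes of each chromosome of their log2 (CPM + 1) deviation from the midpoint of the shEV and EV means, after each library's own median was removed; circles are NUP98-NSD1 shEV, triangles NUP98-NSD1 DMSO and squares MLL-AF9 EV, and shEV and EV mirror each other by construction. On chromosomes 1, 5 and 6 the shEV circles lie between 0.17 and 0.24 and the EV squares between -0.24 and -0.17, with the DMSO triangles on the side of shEV; on chromosome 15 the order is turned round.

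Along chromosomes 1 and 6 the median of shEV over EV was above 0 in every 20 Mb segment with at least 20 genes. Segment medians were 0.25 to 0.63 over 9 segments of chromosome 1 and 0.19 to 0.67 over 8 segments of chromosome 6. The first 20 Mb of chromosome 1 (22 genes) had a median of 0.25 for shEV over EV, -0.01 for DMSO over EV and 0.30 for shEV over DMSO. Chromosome 5 was uneven. Its first 20 Mb had a median of 0.15 for shEV over EV and -0.19 for DMSO over EV. Its segment from 20 to 40 Mb had a median of 0.63 (117 genes) and that from 140 to 160 Mb one of 0.53 (75 genes), while the segments from 60 to 80 Mb and from 80 to 100 Mb had medians of -0.17 (49 genes) and -0.10 (30 genes). DMSO over EV gave 0.54 and 0.47 in those middle segments, and shEV over DMSO gave -0.56 and -0.44. These stretches of chromosomes 1 and 5 thus differed between the control cultures of the same fusion. Such differences were not confined to them. On chromosome 17 shEV over DMSO was 0.48 from 60 to 80 Mb (47 genes) and 0.48 from 80 to 100 Mb (33 genes). From 140 to 160 Mb of chromosome 1 it was -0.32 (42 genes). On chromosome 15 the segments from 80 to 100 Mb and from 100 to 120 Mb were lowest, at -0.57 (113 genes) and -0.71 (35 genes).

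Gene lists were then read against the background of 15.2% higher, 14.0% lower and a median difference of -0.32 points. For DMSO over EV the background was 19.4% higher and 22.4% lower. The members of each list are described by counts under the percentile rule, with those of DMSO over EV beside them. A called member that averaged under 1 CPM in the lower group had to differ. Between shEV and EV there were 4 such members among self-renewal genes and 3 each among BCL2 family and chemokine and cytokine genes. Late neutrophil, monocyte and macrophage, integrin and p53 genes had 2 each. HOXA, HOXB, myeloid factor, growth factor receptor, azurophil granule and class II genes had 1 each. Of 22 self-renewal regulators that passed, 4 were higher and 12 lower in shEV, with a median difference of -12.4 points. Beside Cd34 and Adgrg1, the receptor tyrosine kinase Flt3 had 0.266, 0.145 and 0.129 CPM in shEV and 0.397 to 0.723 CPM in DMSO, against 77.0 and 73.1 CPM in EV. The transcription factor Sox4 had 12.5, 11.7 and 11 CPM in shEV and 14.1 to 16.3 CPM in DMSO, against 205 and 203 CPM in EV. For the DMSO culture the counts were 2 higher and 9 lower of 20. Lin28b, an RNA-binding protein of fetal progenitors, was chosen after its values were seen. It had 27.5, 28.0 and 28.2 CPM in shEV, 1.19 to 1.77 CPM in DMSO, and 0 and 0.29 CPM in EV, so it set shEV apart from both other groups.

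Myeloid transcription factors went both ways, with 4 higher and 7 lower of 20 in shEV and the opposite balance in DMSO, 9 higher and 4 lower of 21. Runx3 averaged 14.9 ± 1.31 CPM in shEV, 17.6 CPM in DMSO and 123 ± 3.05 CPM in EV. Maf, a macrophage factor, averaged 40.3 ± 0.78 CPM in shEV, 46.2 CPM in DMSO and 4.82 ± 0.25 CPM in EV. Gfi1, a repressor needed for neutrophil development, averaged 74.2 ± 2.23 CPM in shEV, 34.9 CPM in DMSO and 17.1 ± 2.86 CPM in EV. Nfe2, a factor of the megakaryocyte and erythroid lineages, averaged 37.9 ± 2.48 CPM in shEV, 80.2 CPM in DMSO and 116 ± 3.88 CPM in EV, and was called lower in shEV and not in DMSO.

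Among growth factor receptors 5 were higher and 2 lower of 14 in shEV, and 11 higher and 1 lower of 15 in DMSO. Csf2ra, the alpha chain of the granulocyte-macrophage colony-stimulating factor receptor, had 93.4, 92.5 and 87.7 CPM in shEV and 78.3 to 83.9 CPM in DMSO, against 20.5 and 19.5 CPM in EV. Tnfrsf1a, a tumour necrosis factor receptor, had 148 to 151 CPM in shEV and 269 to 295 CPM in DMSO, against 44.4 and 39.7 CPM in EV. Csf2rb2, a beta chain restricted to mouse, was lower in shEV than in EV and higher in DMSO than in EV (13, 56.3 and 33.3 CPM on average in shEV, DMSO and EV).

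Azurophil granule genes mark promyelocytes, and most sat at the top of the ranks in both lines. Mpo, myeloperoxidase, was above the 99.9th percentile everywhere, with 9810, 9917 and 9662 CPM in shEV, 4401, 4665 and 4566 CPM in DMSO, and 4534 and 4332 CPM in EV. A rank cannot show a difference at that end, and by CPM Mpo was called higher in shEV (log2 ratio 1.14). Elane, neutrophil elastase, had 541, 550.0 and 525 CPM in shEV and 930.2 to 963 CPM in DMSO, against 75.9 and 69.1 CPM in EV. Prss57, a granule serine protease, was nearly missing in shEV at 0.611 to 0.665 CPM, against 50.5 and 50.3 CPM in EV. Of 9 members, 3 were called higher and 1 lower in shEV, and 2 higher and 1 lower in DMSO.

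Of 22 late neutrophil genes listed, 11 were in both tables and 10 passed the filter, so the counts do not cover the list as a whole. They were 6 higher and 2 lower of 10 in shEV and 9 higher and none lower of 10 in DMSO. Olfm4, a secondary granule protein, had 71.3, 68.8 and 70.8 CPM in shEV and 46.7 to 48.7 CPM in DMSO, against 0.904 and 1.16 CPM in EV. Fpr2, a second formyl peptide receptor, had 110 to 116 CPM in shEV and 59.7 to 65.1 CPM in DMSO, against 4.68 and 5.75 CPM in EV. Lcn2, the iron-scavenging lipocalin, had 118 to 126 CPM in shEV and 408 to 420.0 CPM in DMSO, against 14.7 and 11.1 CPM in EV. Fpr1 and Fpr2 are close relatives and lie side by side on chromosome 17, so reads may be shared between them.

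Monocyte and macrophage genes had 18 higher and 5 lower of 33 in shEV and 23 higher and 1 lower of 33 in DMSO. The median difference for shEV was 12.6 points. Clec4a1, a C-type lectin, had 151, 137 and 151 CPM in shEV and 357 to 369 CPM in DMSO, against 12.2 and 11 CPM in EV. Cd300a, an inhibitory receptor, had 84.3 to 87.3 CPM in shEV and 203 to 207 CPM in DMSO, against 11 and 9.29 CPM in EV. Clec4a1 and its paralogs Clec4a2 and Clec4a3 lie together on chromosome 6, and reads may be shared between them. Ccr2, the receptor that brings monocytes out of marrow, went the other way in shEV, with 21.9, 24.3 and 21.9 CPM in shEV and 285 to 302 CPM in DMSO, against 191 and 175 CPM in EV. Itgam, the CD11b integrin chain, was named after its values were seen. It averaged 55.1 ± 4.34 CPM in shEV, 1003 CPM in DMSO and 329 ± 5.93 CPM in EV, so shEV was lowest and DMSO highest.

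Calls among antigen presentation genes were all lower in shEV. Of 15 class I genes none was higher and 7 were lower, with a median of -9.66 points, while DMSO had 2 higher and 5 lower of 15. Psmb8, an immunoproteasome subunit, had 10.5, 10.5 and 9.2 CPM in shEV and 60.03 to 65.4 CPM in DMSO, against 282 and 283 CPM in EV. Tap2, a subunit of the peptide transporter, had 14.0 to 14.9 CPM in shEV and 61.7 to 64.5 CPM in DMSO, against 177 and 174 CPM in EV. Psmb9 averaged 5.61 CPM in shEV, 31.4 CPM in DMSO and 73.6 ± 0.415 CPM in EV. Tap1 averaged 19.6 ± 1.13 CPM in shEV, 45.7 CPM in DMSO and 86.6 ± 3.81 CPM in EV. These 4 genes are neighbours in the major histocompatibility complex on chromosome 17, from Psmb9, which starts at 34181987, to Tap2, which ends at 34216321 (GRCm38, GENCODE M21). All 4 class II genes that passed were lower in shEV, led by H2-DMa at 1.54 ± 0.185 CPM in shEV, 11.3 CPM in DMSO and 18.2 ± 1.03 CPM in EV, and DMSO had 2 higher and 1 lower.

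Interferon-stimulated genes had 2 higher and 13 lower of 21 in shEV, with a median of -11.6 points, and 3 higher and 3 lower of 21 in DMSO. Of the called members, 7 averaged under 1 CPM in the lower group. Ifi203 had 5.42, 4.16 and 4.47 CPM in shEV and 81.1 to 89.1 CPM in DMSO, against 66.0 and 67.8 CPM in EV. The integrin and adhesion list had 1 higher and 7 lower of 18 in shEV and 2 higher and 6 lower of 18 in DMSO. Itgb3, the integrin beta 3 chain, had 5.06 to 6.11 CPM in shEV and 41.0 to 43.8 CPM in DMSO, against 72.6 and 70.2 CPM in EV.

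Calls among genes of the amino acid stress response and of serine synthesis were all higher in shEV, with 11 higher and none lower of 20 and a median of 12.8 points. Slc7a11, the cystine transporter, had 47.5, 50.6 and 47.0 CPM in shEV and 9.98 to 11.4 CPM in DMSO, against 3.46 and 4.01 CPM in EV. Psph, the last enzyme of serine synthesis, had 150 to 154 CPM in shEV and 44.8 to 48.7 CPM in DMSO, against 31.3 and 34.3 CPM in EV. The transcription factor Atf5 averaged 61.8 ± 1.4 CPM in shEV, 22.0 CPM in DMSO and 10.8 ± 1.1 CPM in EV. DMSO against EV had 6 higher and 1 lower of 21, and shEV against DMSO had 13 higher and 2 lower of 21.

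Cholesterol synthesis genes had 1 higher and 10 lower of 22 in shEV and 2 higher and 10 lower of 22 in DMSO. Sqle, squalene epoxidase, averaged 25.2 ± 0.336 CPM in shEV, 35.8 CPM in DMSO and 60.1 ± 1.34 CPM in EV. Insig1, a sterol-sensing retention protein, averaged 36.9 ± 1.28 CPM in shEV, 31.4 CPM in DMSO and 86.2 ± 0.917 CPM in EV. Idi1 and Fdps, enzymes of the isoprenoid steps, averaged 47.2 and 58.3 CPM in shEV against 111 and 137 CPM in EV.

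Cell cycle and growth lists held few calls between the vector cultures. Of 30 S phase genes 1 was higher and 4 lower, of 30 G2 and M phase genes 1 was higher, and of 30 ribosome biogenesis genes 1 was lower, with medians of -1.43, 0.43 and -0.23 points. DMSO against EV had 16, 5 and 19 lower members in those lists. DMSO had 2 higher and 2 lower of 12 PRC2 genes. Of these 12, only Phf19, an accessory subunit, was called in shEV, at 35.7 ± 1.51 CPM in shEV, 14.4 CPM in DMSO and 18.95 ± 0.628 CPM in EV. Among 19 PRC1 genes 1 was higher and 6 lower in DMSO, and 2 were higher and 5 lower in shEV, led by Yaf2 at 9.1 ± 0.2 CPM in shEV, 11.1 CPM in DMSO and 43.5 ± 1.8 CPM in EV. The H3K27 demethylase genes Kdm6a and Kdm6b led the list of histone methylation regulators, in which 2 of 30 were higher and 7 lower in shEV, and 5 higher and 12 lower in DMSO. Kdm6a averaged 37.6 ± 0.65 CPM in shEV, 38.0 CPM in DMSO and 155 ± 0.924 CPM in EV, and Kdm6b averaged 7.91 ± 0.264 CPM in shEV, 23.3 CPM in DMSO and 44.8 ± 1.73 CPM in EV.

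The BCL2 family of survival regulators had 5 higher and 2 lower of 15 in shEV, with a median of -3.20 points, and 4 higher and 2 lower of 14 in DMSO. Bcl2 itself, which protects cells from apoptosis, had 27.3, 27.02 and 27.1 CPM in shEV and 7.34 to 12.2 CPM in DMSO, against 168 and 161 CPM in EV. Bcl2a1a, Bcl2a1d and Bcl2a1b were called higher, but they are near-identical copies that may share reads. Of 21 p53 pathway genes 9 were higher and 4 lower in DMSO, and 7 were higher and 2 lower in shEV, led by Zmat3 at 51.4 ± 1.26 CPM in shEV, 18.0 CPM in DMSO and 7.68 ± 0.269 CPM in EV. For chemokine and cytokine genes the balance turned with the culture, with 3 higher and 5 lower of 18 in shEV and 6 higher and 2 lower of 18 in DMSO. Cell cycle inhibitor genes had 1 higher and 2 lower of 8 in shEV, too few to set against the background, and 4 higher and 1 lower of 8 in DMSO. Of 4 HOX cofactor genes 2 were lower in shEV, Meis1 and Pknox1, and 1 was higher and 2 lower in DMSO.

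**Figure D5:**
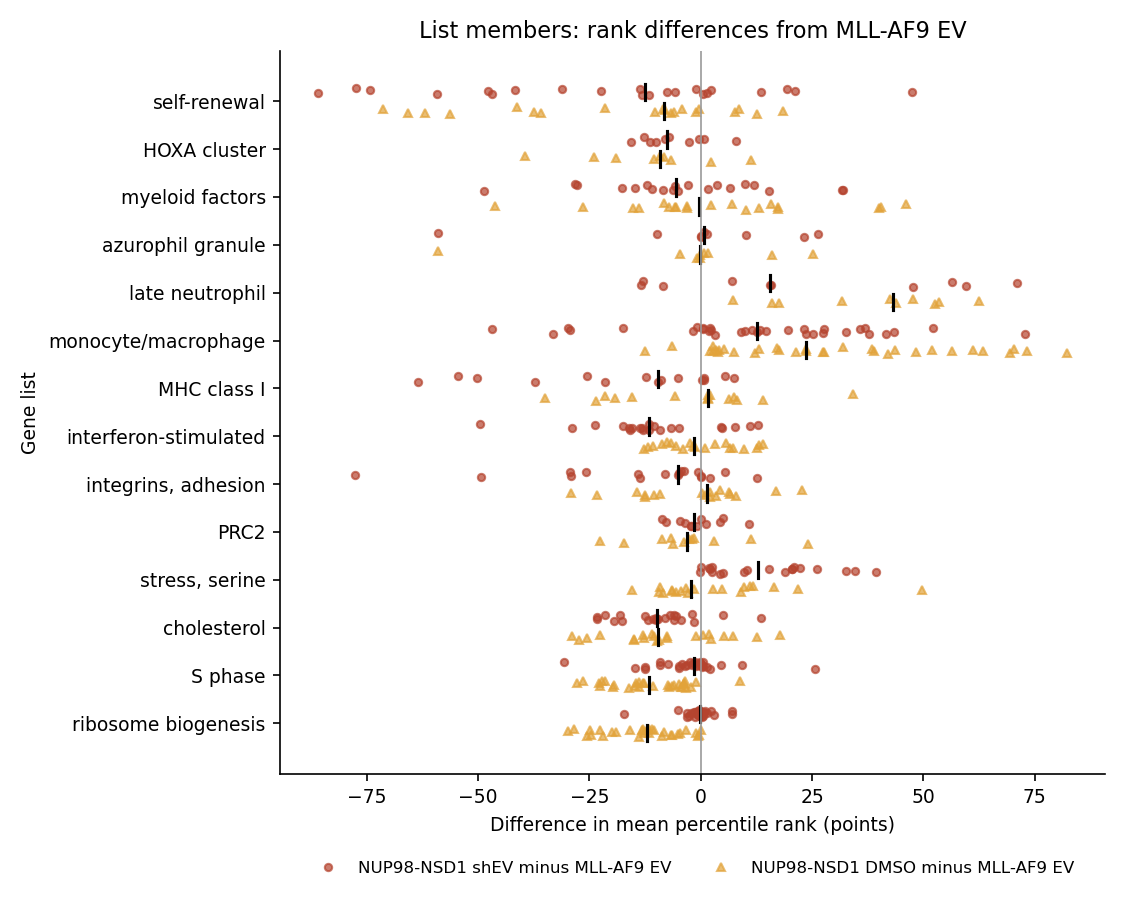
Difference in mean percentile rank from MLL-AF9 EV of each list member that passed the filter, for NUP98-NSD1 shEV (circles) and NUP98-NSD1 DMSO (triangles), with a black bar at the list median; both share the EV libraries. Monocyte and macrophage and late neutrophil members lie mostly to the right in both, stress and serine members lie to the right in shEV, and S phase and ribosome biogenesis members lie near 0 in shEV and to the left in DMSO.

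The labelled cell type was checked against marker lists. All 11 markers of granulocyte and monocyte progenitors were in both tables, with a summed level of 13547 to 13903 CPM in shEV and 6539 to 6777 CPM in EV. Most of that sum was Mpo, and by rank 4 of the 11 were higher and 1 lower in shEV, with a median difference of 1.66 points. Few markers of other cell types were in both tables, and their summed levels were 0.917 to 1.22 CPM in shEV against 29.3 to 34.1 CPM in EV for 2 erythroid genes, 6.97 to 8.1 CPM against 22.6 to 22.7 CPM for 3 mast cell, basophil and eosinophil genes, and 2.25 to 2.61 CPM against 2.02 to 2.44 CPM for 1 T and NK cell gene. For 3 B cell genes they were 13.8 to 16.4 CPM in shEV against 18.8 to 18.9 CPM in EV. For 5 megakaryocyte, 4 dendritic and 2 stromal and endothelial genes they were 88.1 to 95.2, 138 to 144 and 169 to 174 CPM in shEV against 66.9 to 69.3, 266 to 272 and 205 to 213 CPM in EV. The erythroid sum rests on Tfr2, at 0.352 CPM in shEV against 31.2 ± 3.16 CPM in EV. These sums leave out markers listed in 1 table only. Those at 10 CPM or more were Nkg7 of T and NK cells (16.5 CPM) and Itgax of dendritic cells (13.3 CPM), both in EV. The sum for 1 T and NK cell gene therefore does not show such genes to be level. In bulk RNA fewer cells of a type and less RNA per cell cannot be told apart.

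A readout that shares no library with shEV or EV was available in the NUP98-NSD1 cells given UNC1999 or JQEZ5, inhibitors of PRC2, at 3 µM for 4 days. Tested with limma against DMSO, 2546 of 10679 genes rose with UNC1999 (23.8%) and 2564 fell (24.0%), and 1396 rose with JQEZ5 (13.1%) and 1124 fell (10.5%). Of the genes higher in shEV than in EV, 1594 could be tested there, and with UNC1999 605 of them rose (38.0%) and 270 fell (16.9%). Of 1336 genes lower in shEV, 345 rose (25.8%) and 288 fell (21.6%). Over all 10380 genes that passed both filters, 23.2% rose and 24.3% fell. With JQEZ5, 370 of the higher genes rose (23.2%) and 142 fell (8.91%), and 169 of the lower genes rose (12.6%) and 175 fell (13.1%), against 12.6% and 10.5% of all. The difference between these shares was not tested. Log2 changes below are differences of the authors' variance-stabilised log2 values. For genes with few reads they are smaller than log2 ratios of reads.

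Among the genes at least 40 points higher in shEV, 130 could be tested, and 61 rose (46.9%) and 27 fell (20.8%) with UNC1999, while 40 rose (30.8%) and 12 fell (9.23%) with JQEZ5. Among those at least 40 points lower, 62 could be tested, and 22 rose (35.5%) and 9 fell (14.5%) with UNC1999, while 9 rose (14.5%) and 11 fell (17.7%) with JQEZ5. Gpnmb changed most of the leading genes, with a log2 change of 3.67 ± 0.02 (SE) with UNC1999 and 2.58 ± 0.02 with JQEZ5 (limma adjusted p = 2.83e-21 and 5.6e-19). Pmp22 rose by 0.90 ± 0.03 with UNC1999 and 0.61 ± 0.03 with JQEZ5 on the log2 scale (limma adjusted p = 7.92e-13 and 2.99e-10). Mras fell by 0.43 and 0.37 (limma adjusted p = 1.76e-07 and 3.04e-06). Pde2a did not pass with either inhibitor, with log2 changes of 0.08 ± 0.04 and 0.06 ± 0.04 (limma adjusted p = 0.0657 and 0.263).

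On the lower side Cd24a and Marcksl1 rose with both inhibitors, and Adgrg1 and Lsp1 fell with both. Hist1h2ap, Ptprcap, Cd34, Cnn3 and Epha7 could not be tested there. Cd24a changed by 0.87 ± 0.06 with UNC1999 and 0.42 ± 0.06 with JQEZ5 (limma adjusted p = 5.43e-09 and 5.49e-05). Adgrg1 fell by 0.31 and 0.25 (limma adjusted p = 0.00106 and 0.0106). Lsp1 fell by 0.15 with UNC1999 and 0.35 with JQEZ5 (limma adjusted p = 0.017 and 5.9e-05). Itgb7 did not pass with UNC1999 at -0.04 (limma adjusted p = 0.587) and fell by 0.26 with JQEZ5 (limma adjusted p = 0.00179). Hoxa9 and Meis1 fell with UNC1999, by 0.52 and 0.35 (limma adjusted p = 8.54e-09 and 4.31e-05), and with JQEZ5, by 0.37 and 0.30 (limma adjusted p = 1.46e-06 and 0.000446). Nsd1 did not pass with UNC1999 at -0.01 ± 0.03 (limma adjusted p = 0.787) and fell by 0.10 with JQEZ5 (limma adjusted p = 0.0307).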

How the data were processed

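RNA of 21 libraries was sequenced, of which 8 enter the line comparisons and 9 the inhibitor readout. Per the submitters' processing notes, reads were handled with STAR 2.4.2, Salmon 0.1.19 and DESeq2 1.38.2 on mm10 (GRCm38.p4), and per the labels' protocols total RNA went into libraries of 1 of 2 kits. The deposited values are log2 values after the authors' variance-stabilising transformation, made separately for each of 3 tables. Undoing its closed form gave whole multiples of 1 step for 100% of values in every library, at a tolerance of 0.05, hence reads, CPM and percentile ranks. Symbols turned into dates or repeated were dropped (22, 18 and 18 per table). The members and gene lists were chosen with earlier results of these data known.

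Genes at 1 CPM or more in at least 2 libraries of a comparison were kept. Ratios are of mean CPM plus 1. Ranks between shEV and EV used symbols in both tables, and those with DMSO the 12466 symbols in all 3 tables. The genes named are Nup98, Nsd1, Kmt2a, Mllt3, Hoxa9, Meis1, Kdm5b and Ezh2, the 10 called genes with the largest percentile difference each way among those at 10 CPM or more in the higher line, the 5 with the largest CPM ratio each way at 100 CPM or more, and up to 4 leading called members of a list. Predicted and small RNA genes were left out. Genes outside this rule are named as list members or as chosen after their values were seen. Coordinates came from GENCODE M21 and promoters from RefSeq.

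For the inhibitor table, a linear model with 1 coefficient per group was run in limma 3.58.1 (R 4.3.3, moderated with an intensity trend). Genes entered when 3 or more libraries exceeded the table's minimum by 1 on the log2 scale, with Benjamini-Hochberg adjustment over 10679 genes, and calls at an adjusted p under 0.05. Its p-values measure the spread between libraries, which may be technical. Scripts were tested on simulated data. Alternatives were other thresholds, filters, scalings and pseudocounts, DMSO in place of shEV, all libraries of a table, and leaving out each library. The chromosome medians and their alternatives were added after the data were seen. A further gene found in 1 table only is not reported here.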

Additional observations from a re-analysis of the deposited data

Results flagged for a closer look

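Genes listed in 1 table only do not enter the comparison, and 3 list members among them averaged at least 50 CPM in MLL-AF9 EV, a signal in data that the report does not use. Xist, the RNA that coats an inactive X chromosome, was at 627 and 577 CPM in EV (mean 602 CPM). The transcription factors Gata2 and Mecom were at 75.5 and 73.9 CPM in EV. The lack of a symbol from the other table gives no level there. Of 2575 symbols used in the shEV table alone, 67 averaged 10 CPM or more, among them the progenitor marker Prom1 at 47.4 ± 1.18 CPM, and of 905 symbols in the EV table alone, 84 did. No comparison was made for these genes.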

How the results depend on the processing

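The count of 3519 genes between the lines became 6588 with a minimum of 5 points, 1187 with 20 points and 10705 with no minimum. It was 5003 with DMSO in place of shEV (2324 higher and 2679 lower) and 3168 over all 6 libraries of each table. Leaving out 1 library gave 3274 to 3534. The 2774 calls by CPM became 1830 with a pseudocount of 5 CPM, 925 at 4-fold, and 2683 with the median of each chromosome removed, and leaving out 1 library gave 2572 to 2790. The 3639 calls between shEV and DMSO became 937 at 20 points (286 higher and 651 lower), and leaving out 1 library gave 3632 to 3673. Leaving out 1 library gave 4342 to 5038 of 5110 calls for UNC1999 and 1820 to 2180 of 2520 for JQEZ5. Of the alternative values of the 28 named genes, 171 moved by no more than 1 SD, 101 moved by more and 2 were reversed. With DMSO in place of shEV only F7 and Epha7 stayed within 1 SD. The direction of a called gene turned for Kdm5b, at 33.3 points with DMSO in place of shEV and 10.8 points with shEV and DMSO together. Hoxa9, not called, was at 0.476 points over all 6 libraries of each table, against -0.332 points in the report.

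No paired analysis was possible for the lines because they lie in separate tables and no test was made. In the inhibitor table, same-numbered libraries correlated at -0.0806 to 0.0633 in their deviations, so the numbers do not pair them. With the replicate block 5019 genes were called for UNC1999 and 2375 for JQEZ5. Depth limits genes with few reads, whose CPM rests on single reads, and counting error is only part of their spread.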
